A study of Macaca mulatta with 4 samples.

Results

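The regions described here are wide domains of trimethylated lysine 27 on histone H3 (H3K27me3) in GG embryos that hold no covered base in AG embryos. They number 156 of the 555 wide GG domains on chromosomes 1 to 20, and the other 399 hold AG bases. The data are CUT&RUN libraries from rhesus macaque (Macaca mulatta) morulae, 2 labelled AG and 2 labelled GG, for androgenetic embryos, whose nuclear genome is paternal, and gynogenetic embryos, whose nuclear genome is maternal, as the series describes them. No further treatment or genetic change is labelled in either group, and nothing in the labels says that the replicates came from separate pools of embryos. Each library is a list of intervals on the build rheMac8, read here as stretches of bases under sequenced tags that lay on islands called enriched by the submitters. An uncovered base may still carry the mark, since tags away from called islands were dropped.

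H3K27me3 is deposited by the Polycomb repressive complex PRC2, whose catalytic subunit is EZH2 or EZH1, and it is associated with silent chromatin. It can spread over long stretches as well as sit at the promoters of developmental genes. In mouse, broad H3K27me3 domains laid down in the growing oocyte are inherited by the early embryo, and some of them silence the maternal allele of nearby genes before implantation, a form of imprinting that does not rest on DNA methylation. CUT&RUN maps such a mark by tethering a nuclease to it through an antibody and sequencing the DNA that the nuclease releases.

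The members were chosen by coverage itself. In each GG library, intervals at most 1500 bp apart were joined and domains of at least 50 kb kept, which gave 706 domains in replicate 1 and 832 in replicate 2. Stretches of at least 50 kb common to a domain of each library made the 555 shared pieces, and those with 0 covered bases in both AG replicates are called AG-free domains below. High GG coverage and absent AG coverage inside them are therefore a description and were not tested. No gene, sequence or repeat content was analysed here, since no genome or annotation of rheMac8 was used.

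The 4 libraries differ in ways that bear on every value. AG replicates 1 and 2 hold 42512 and 44337 intervals, covering 0.497% and 0.635% of chromosomes 1 to 20, and GG replicates 1 and 2 hold 362999 and 287230 intervals, covering 7.80% and 7.23%. The intervals carry no counts, so sequencing depth is unknown. The submitters called islands with a window of 200 bp and a gap of 200 bp in AG, and a window of 300 bp and a gap of 1200 bp in GG. The calling settings and the groups cannot be told apart, and neither can fewer marked cells and less of the mark per cell. Any p-value between libraries rests on replicates that may differ for technical reasons alone.

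Lack of AG coverage was the usual state of the genome and the less usual state of a wide GG domain. Of 53461 tiles of 50 kb on chromosomes 1 to 20, 87.5% lacked AG coverage in both AG libraries, 92.8% had none in AG replicate 1 and 88.9% none in AG replicate 2. The AG-free domains were 28.1% of the wide GG domains, which are at least as wide as a tile. Sorted by GG coverage, the share of tiles without an AG base was 94.4% where neither GG library had a base and 74.5% where GG coverage was present but under 20% in at least 1 library. It was 62.5% where the less covered of the GG libraries had 20% to 50%, 56.9% where it had 50% to 80% and 37.2% among the 898 tiles covered to at least 80% in both. The order was the same in each AG library alone, from 97.3% to 57.1% in replicate 1 and from 95.2% to 45.3% in replicate 2. The AG-free domains thus belong to the class of sequence in which AG coverage was met most often, and are the part of it where none was recorded.

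**Figure D1:**
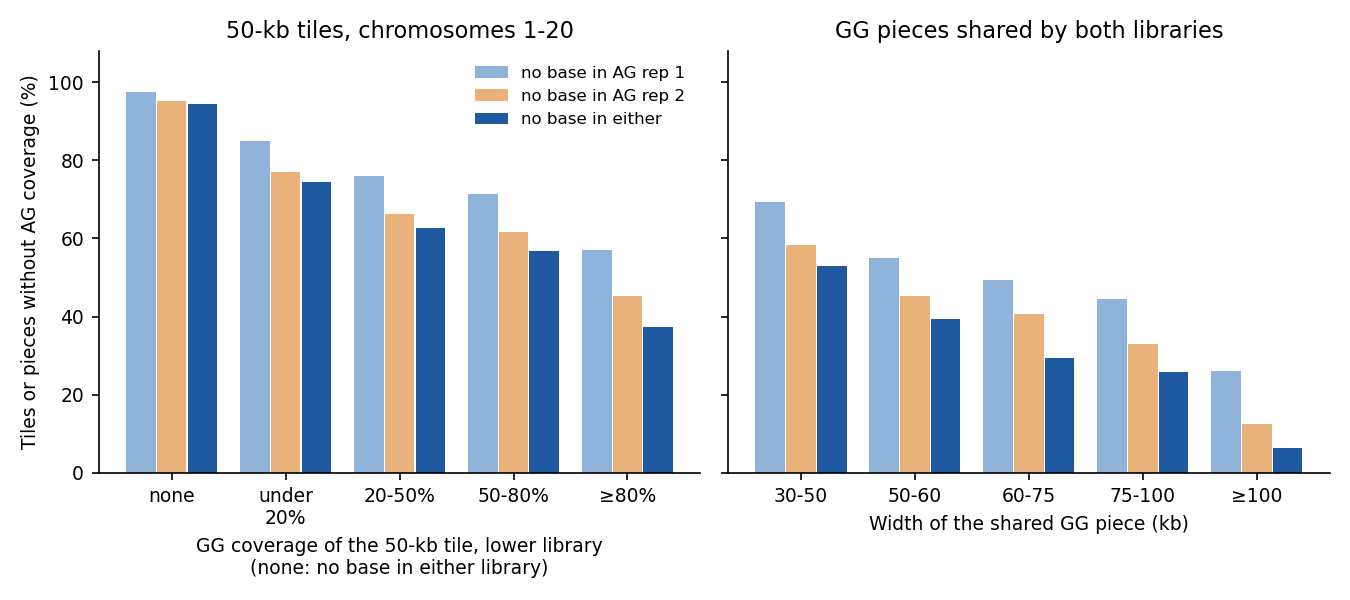
Percentage of 50-kb tiles, by the coverage of the less covered GG library (left), and of GG pieces common to both GG libraries, by width (right), with no covered base in AG replicate 1, in AG replicate 2 or in either. The dark bars fall from 94.4% to 37.2% across the tile classes and from 53.0% to 6.25% across the width classes.

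Width went with the chance of holding an AG base. AG-free domains made up 77 of 195 wide domains of 50 to 60 kb (39.5%), 41 of 140 of 60 to 75 kb (29.3%) and 32 of 124 of 75 to 100 kb (25.8%). Above 100 kb they were 6 of 96 (6.25%). Shared GG pieces of 30 to 50 kb, made by the same joining with the minimum lowered to 30 kb, lacked AG bases in 448 of 845 cases (53.0%). A longer piece has more bases in which an AG interval can fall, and no correction for this was made. The AG-free domains measured 50.2 to 129.4 kb with a median of 60.6 kb, against a median of 71.2 kb and a maximum of 323.9 kb for those with AG bases. Together they spanned 10.4 Mb, which is 0.390% of the chromosomes but 4.49% and 5.00% of the covered bases of GG replicates 1 and 2.

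The AG libraries often lacked coverage in the same wide domains. AG replicate 1 had no base in 256 of the 555 (46.1%) and AG replicate 2 none in 198 (35.7%). In each AG library this share fell with width, and no correction for width was made. The 156 common to both are 60.9% of the first list and 78.8% of the second. Another 100 were marked by AG replicate 2 alone, at a median of 1526 covered bases, and 42 by AG replicate 1 alone, at a median of 2076. The 257 marked by both held medians of 4121 and 4551 bases in AG replicates 1 and 2. With AG replicate 2 left out the count of AG-free domains was 256, and with GG replicate 1 left out it was 281 of 832. Joining at 500 bp gave 70 and at 3000 bp gave 246, and minimum widths of 30 and 75 kb gave 604 and 38, so the count belongs to these settings.

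The border of the rule was arbitrary on the width side, and on the AG side it rests on islands called in windows of 200 bp. No wide domain held between 1 and 300 AG bases in all, while 27 held between 1 and 1000. The fewest were 331 bases on chromosome 3 (66731922 to 66795637), 582 on chromosome 1 (165062356 to 165131789) and 658 on chromosome 11 (113574596 to 113647188), in AG replicate 2 in each case, with 0 in AG replicate 1. The narrowest AG-free domains measured 50160 bp on chromosome 9 (62659459 to 62709618), 50165 bp on chromosome 2 (108229400 to 108279564) and 50167 bp on chromosome 15 (40155215 to 40205381). Just under the minimum lay AG-free pieces of 49965 bp on chromosome 7 (46564998 to 46614962), 49954 bp on chromosome 9 (33325532 to 33375485) and 49860 bp on chromosome 10 (90792240 to 90842099).

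Inside the AG-free domains GG coverage was dense in both libraries. Summed over the 156, it was 89.8% of bases in GG replicate 1 and 92.7% in GG replicate 2 (91.2% ± 2.04, SD, n = 2). Single domains ran from 77.8% to 97.6% in replicate 1, with a median of 89.8%, and from 83.3% to 98.7% in replicate 2, with a median of 92.9%. Both libraries reached at least 80% in 153 domains, at least 90% in 73 and at least 95% in 8. Replicate 2 covered more than replicate 1 in 138 domains and less in 17. In the remaining one, on chromosome 14 (48787739 to 48898527), both covered 103974 bases. Across the 156 domains the coverage values of the GG libraries rose together (Pearson r = 0.717, Spearman rho = 0.680), a description over regions that share the same libraries. Width and mean GG coverage were nearly unrelated (r = 0.107, rho = 0.0791).

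**Figure D2:**
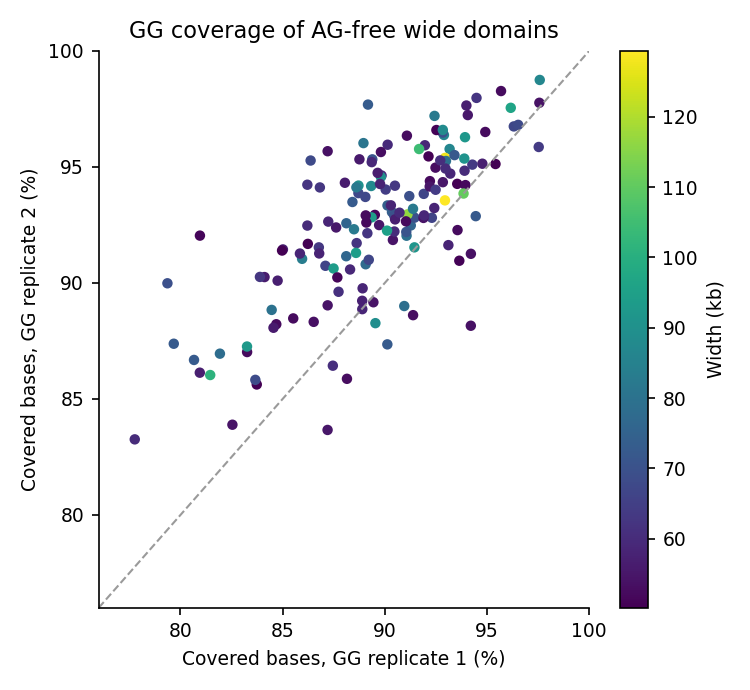
Covered bases (%) of each of the 156 AG-free domains in GG replicate 1 (x axis) and GG replicate 2 (y axis), coloured by width in kb, with the line of equal coverage dashed. Most points, 138 of 156, lie above the line, and wide domains are found over most of the range.

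The widest AG-free domains show how this looks along a chromosome. The widest lay on chromosome 15 (106086521 to 106215902, 129.4 kb), covered to 92.9% and 93.6% in GG replicates 1 and 2 and to 0 in both AG replicates. The domain on chromosome 8 (37717867 to 37845618, 127.8 kb) was covered to 92.9% and 95.4%, and that on chromosome 4 (37644202 to 37760629, 116.4 kb) to 91.1% and 92.9%. All 3 were parts of a wider stretch in GG replicate 2, where the joined domains measured 190.9, 260.8 and 155.9 kb, while in GG replicate 1 the domain and the shared piece coincided.

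The next were the chromosome 14 domain with equal coverage (110.8 kb) and a domain near the start of the same chromosome (1796060 to 1900507, 104.4 kb), covered to 91.7% and 95.8%. On chromosome 10 (68051996 to 68153173, 101.2 kb) coverage was lower, at 81.5% and 86.0%. The domain on chromosome 7 (45222654 to 45318938, 96.3 kb) was among the most densely covered, at 96.2% and 97.5%. The list of 10 closes with chromosome 3 (66623929 to 66718200, 94.3 kb, 89.3% and 92.8%) and a pair on chromosome 19. The members of that pair (24639200 to 24733207 and 24775503 to 24870358) measured 94.0 and 94.9 kb and were covered to 88.6% and 91.3% and to 90.1% and 92.3%. Across the 10 widest domains GG coverage thus spanned much of the range seen over all 156.

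Some AG-free domains were far less evenly covered by the GG libraries. The largest gaps between them were on chromosome 9 (2451707 to 2502922), with 81.0% in replicate 1 and 92.0% in replicate 2, and on chromosome 10 (57556513 to 57626116), with 79.4% and 90.0%. They were followed by chromosome 9 (124927221 to 124995029) at 86.4% and 95.3%, chromosome 7 (163691937 to 163764925) at 89.2% and 97.7% and chromosome 9 (2560467 to 2614186) at 87.2% and 95.7%. Replicate 2 was the higher library in all 5, and its joined domain was the wider one in all 5, at 86.5, 186.0, 161.5, 295.7 and 138.6 kb against 51.2, 69.6, 120.3, 73.0 and 53.7 kb in replicate 1.

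GG coverage inside the AG-free domains was more broken than in the wide domains with AG bases. Their longest unbroken covered run had a median of 7.89 kb in each GG library, with extremes of 2.79 and 28.7 kb in replicate 1 and 2.45 and 32.9 kb in replicate 2. Wide domains with AG bases had medians of 11.2 and 11.7 kb. The difference held in the same direction in every width class. At 50 to 60 kb the medians were 6.94 against 10.1 kb in replicate 1 and 7.29 against 9.62 kb in replicate 2, at 60 to 75 kb 9.17 against 9.90 and 8.56 against 9.81 kb, and at 75 to 100 kb 8.09 against 12.3 and 8.01 against 13.4 kb. Above 100 kb they were 8.76 against 14.5 kb and 10.3 against 14.5 kb. Per 10 kb the AG-free domains held 9.59 and 8.46 separate intervals in GG replicates 1 and 2, against 7.39 and 6.20 in those with AG bases. Summed coverage was 89.8% against 91.7% in replicate 1 and 92.7% against 94.3% in replicate 2, or 1.88 and 1.64 percentage points less (AG-free minus others −1.88 and −1.64), and it was lower in all 4 width classes in both libraries. Regions are not replicates of a condition, so these differences were not tested.

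Bases left uncovered were shared between the GG libraries to a limited degree. Replicate 1 left 10.2% of the AG-free bases uncovered, replicate 2 left 7.34%, and 2.60% lacked coverage in both, where independent placement would give 0.751%. Gaps with identical ends in both libraries numbered 2 in all the 156 domains, the longer of 238 bp. The shared holes therefore had ends that varied between the libraries.

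The ends of the AG-free domains often differed between the GG libraries. Each domain has 2 ends, and the joined domains of the libraries ended within 1000 bp of each other at 92 of 312 ends (29.5%), with a median offset of 3.86 kb and a largest offset of 198.8 kb. At 118 ends the offset was over 10 kb. Wide domains with AG bases were similar, with 273 of 798 ends (34.2%) within 1000 bp, a median offset of 2.80 kb and 268 over 10 kb. Replicate 2 had the wider joined domain for 278 of the 399 with AG bases, and for 104 of the 156 AG-free domains. For the other 52 AG-free domains the joined domain was wider in replicate 1. This affects AG absence: for 35 AG-free domains the joined GG domain of 1 library went on to hold AG bases outside the shared piece, in replicate 2 for 31 and in replicate 1 for 4, and in both for 0. The other 121 held no AG base over the full joined domain of either library.

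GG coverage fell at the ends of AG-free domains but stayed high beyond them. In the 100 kb on each side, GG replicates 1 and 2 covered 49.8% and 54.8% of bases, which is 6.38 and 7.57 times their level on chromosomes 1 to 20. AG replicates 1 and 2 covered 0.771% and 1.06%, which is 1.55 and 1.67 times their own level. The AG libraries thus were not bare around these domains. For 39 domains these flanks reach into another AG-free domain, where AG bases are 0 by the rule. With the bases of every other wide domain taken out, a choice made after seeing the data, the flanks of AG-free domains were covered to 0.552% and 0.793% in AG and to 40.4% and 45.7% in GG. Averaged by group, flank coverage came to 0.914% ± 0.203 for AG libraries and 52.3% ± 3.51 for GG libraries (SD, n = 2 each). An exact two-sided permutation test of 2 libraries against 2 gave p = 0.333. That is the smallest value it allows, so the test cannot decide anything here. The domain rule fixes part of the GG level. The groups also differed over chromosomes 1 to 20, at 0.497% and 0.635% in AG and 7.80% and 7.23% in GG.

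The surroundings differed from those of wide domains with AG bases in opposite ways for the AG and GG libraries. Next to wide domains with AG bases the AG libraries covered 2.23% and 2.50% of the 100-kb flanks, so the flanks of AG-free domains had 1.46 and 1.44 percentage points less in AG replicates 1 and 2 (AG-free minus others −1.46 and −1.44). GG flank coverage was 45.9% and 51.0% there, so the AG-free flanks had 3.88 and 3.74 points more. With the bases of other wide domains taken out the differences were −1.20 and −1.25 points in AG and 4.18 and 3.97 points in GG. In all 4 width classes and in each library, AG-free domains had the lower AG and the higher GG flank coverage. At 50 to 60 kb, for instance, AG replicate 1 covered 0.685% against 2.38% and GG replicate 1 covered 49.7% against 43.7%. Flanks of 50 and 200 kb gave the same signs, with AG differences of −1.57 in both replicates and of −1.11 and −1.17. Flanks and domains come from the same libraries, and the AG-free state was chosen on these, so this is a description of the regions.

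**Figure D3:**
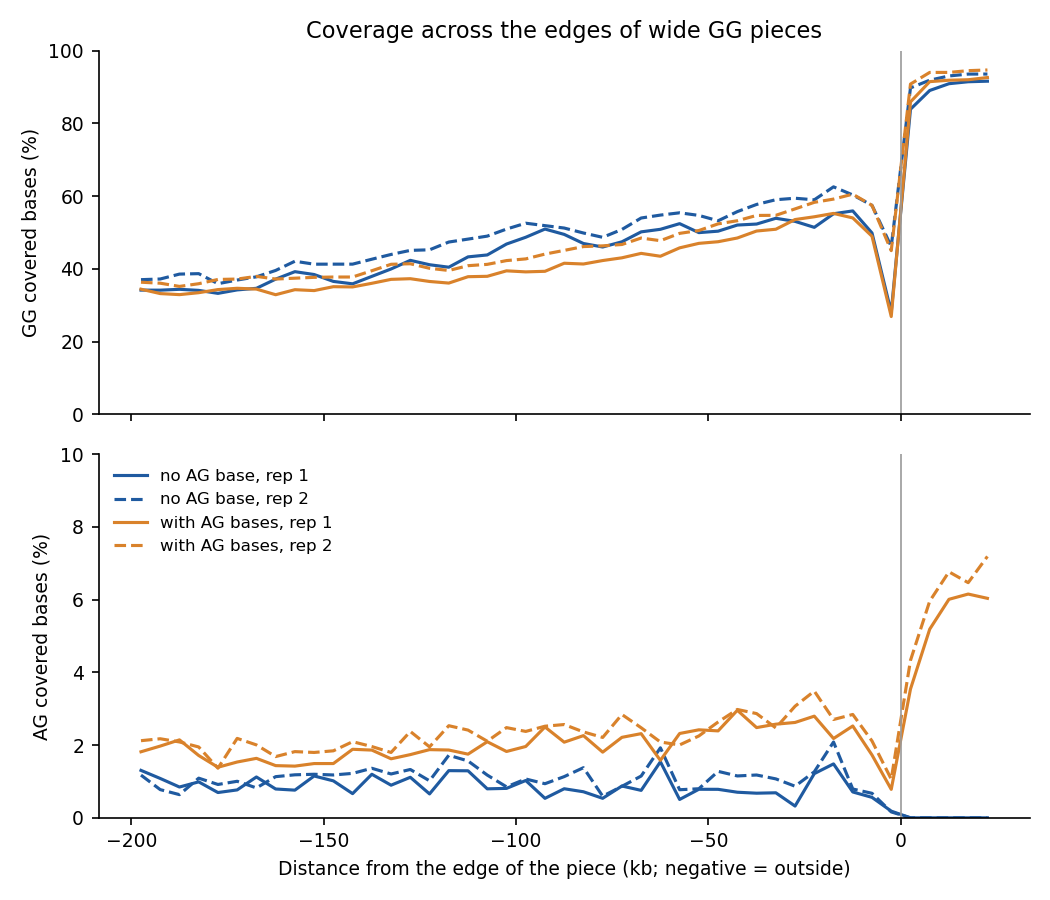
Covered bases (%) in 5-kb steps from 200 kb outside to 25 kb inside the ends of AG-free domains (blue) and of wide domains with AG bases (orange), for GG (top) and AG (bottom), with replicate 1 solid and replicate 2 dashed. Between 95 and 100 kb outside, the blue GG lines lie at 48.7% and 52.6% and the orange ones at 39.2% and 42.8%. Nearer the ends the GG lines meet or cross. Between 20 and 25 kb outside, the blue ones lie at 51.4% and 59.0% and the orange ones at 54.3% and 58.3%. Outside the ends each blue AG line stays below its orange counterpart.

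The first 5 kb outside the ends were less covered than the steps just beyond them. GG coverage there was 28.1% and 46.2% in replicates 1 and 2, below the 55.2% and 62.6% found between 15 and 20 kb outside, as the joining rule ends a domain at a gap of over 1500 bp. AG coverage was 0.184% and 0.163% in the same first 5 kb, against 0.771% and 1.06% over the full 100-kb flanks. It was 0.711% and 0.793% between 10 and 15 kb outside. Between 15 and 20 kb outside it was 1.48% and 2.09%, the highest step of AG replicate 2. Next to wide domains with AG bases the first 5 kb held 0.783% and 1.06% in AG, which was lower than the steps farther out as well.

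The nearest AG interval was seldom next to an AG-free domain. The median distance from an AG-free domain to the nearest interval of either AG library was 48.7 kb, with a range of 2.62 to 1443 kb. It was 130.2 kb to AG replicate 1 and 60.6 kb to AG replicate 2, and with members chosen at a joining distance of 3000 bp it was 89.7 kb to either library. Wide domains with AG bases had the next AG interval outside them at a median of 26.9 kb, and at 51.5 and 33.3 kb by replicate. The contrast varied with width. For domains of 75 to 100 kb the medians to either library were 30.5 kb (AG-free) against 29.6 kb. They were 43.1 against 24.1 kb at 50 to 60 kb, 85.4 against 28.1 kb at 60 to 75 kb and 80.7 against 29.8 kb above 100 kb. An AG interval lay within 10 kb of 7 AG-free domains (4.49%), within 50 kb of 79 (50.6%) and within 250 kb of 134 (85.9%). In the wide domains with AG bases these shares were 20.8%, 67.9% and 95.0%.

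**Figure D4:**
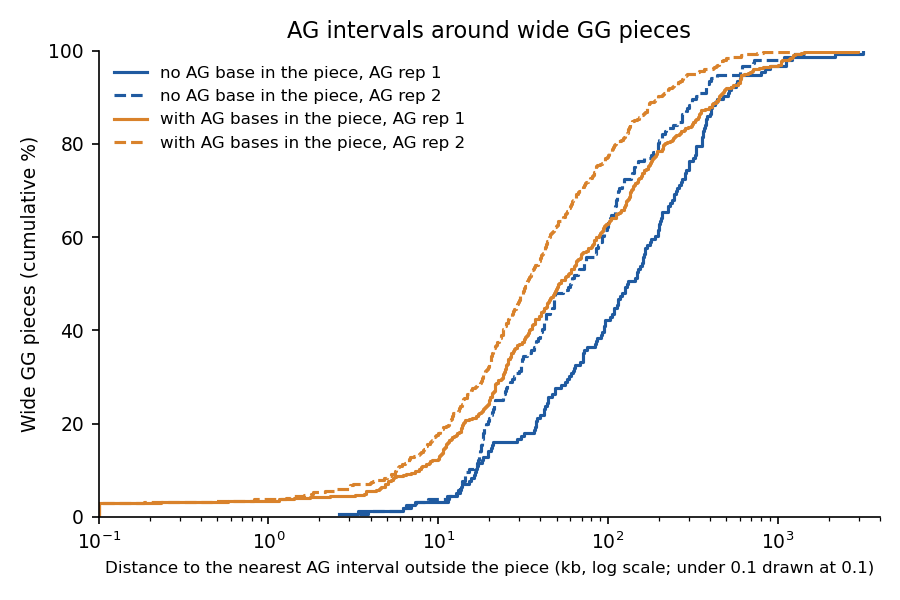
Cumulative percentage of wide GG domains by distance to the nearest AG interval outside them (kb, log scale), for AG-free domains (blue) and those with AG bases (orange), with AG replicate 1 solid and AG replicate 2 dashed. The median of the blue lines is 130.2 and 60.6 kb and that of the orange lines 51.5 and 33.3 kb.

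The AG intervals next to AG-free domains mostly lay under GG coverage themselves. Of the 156 nearest AG intervals, 115 (73.7%) overlapped a GG interval in both GG libraries, 14 in 1 of them and 27 (17.3%) in neither, and 45 lay inside another wide GG domain. The split was similar for wide domains with AG bases, at 281 of 399 (70.4%) in both, 36 in 1 and 82 (20.6%) in neither. Over chromosomes 1 to 20, 51.6% and 48.3% of the intervals of AG replicates 1 and 2 overlapped both GG libraries. GG coverage near these domains was several times its general level, and its part in this share was not tested.

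The closest approach was on chromosome 12 (2080432 to 2159589, 79.2 kb), covered to 93.0% and 95.3% in GG, with AG replicate 1 starting 2621 bp away and AG replicate 2 3882 bp away. On chromosome 2 (108337729 to 108424541, 86.8 kb) the AG libraries lay 3391 and 3416 bp away, and its GG coverage of 97.6% and 98.7% was the highest of the 156 in each GG library. In these places both AG libraries marked sequence just beyond the end of a full GG domain.

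In other close cases 1 AG library alone was near. On chromosome 13 (20635516 to 20698296) AG replicate 1 was 6207 bp away and AG replicate 2 109.5 kb, and on chromosome 1 (158507601 to 158566300) AG replicate 2 was 6469 bp and AG replicate 1 103.7 kb away. On chromosome 9 (39728144 to 39798633) the distances were 6937 and 6250 bp.

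The most isolated AG-free domains lay in long stretches with no AG interval. On chromosome 3 the domains from 47004206 to 47058651 and from 48578298 to 48641414 were 1443 and 1091 kb from the nearest AG interval, inside a common AG-free stretch of 4171 kb that GG replicates 1 and 2 covered to 25.0% and 26.5%. Their own GG coverage was 82.5% and 83.9% for the first and 86.8% and 91.5% for the second. The others were on chromosome 4 (110570934 to 110629904, 903.5 kb away), chromosome 8 (132898783 to 132953715, 724.6 kb) and chromosome 7 (80291949 to 80346279, 604.3 kb), with GG coverage between 83.7% and 91.8%. These 5 measured 54.3 to 63.1 kb, near the lower limit of width.

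Stretches without AG intervals were long throughout the genome, and those around the AG-free domains were shorter than most of it. The distance between the AG intervals on either side of a domain had a median of 362.4 kb and ran from 88.9 to 4218 kb. Weighted by bases, the median such stretch over chromosomes 1 to 20 measured 1138 kb, and stretches of at least 50 kb made up 96.4% of their span. The 156 domains fell into 134 stretches, of which 19 held more than 1 domain. In 11 cases the domain filled at least 50% of its stretch, up to 84.2% for the chromosome 2 domain flanked by AG at both ends. Most domains thus occupied a small part of the sequence between AG intervals, at a median of 17.8%.

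The AG-free domains were unevenly spread over the chromosomes. They occurred on 19 of 20, and chromosomes 9, 7 and 10 had 28, 22 and 14, or 41.0% of them on 14.7% of the span. The same chromosomes held 73, 42 and 42 of the 555 wide GG domains. Chromosomes 1 and 2 had 10 each, chromosomes 3, 12 and 16 had 9 each, and chromosome 17 had none, as it had no wide GG domain. Per 100 Mb there were 21.6 on chromosome 9, 15.1 on chromosome 10, 13.0 on chromosome 7 and 11.7 on chromosome 16, against 5.83 over all. For all wide GG domains these densities were 56.2, 45.2, 24.8 and 37.6, against 20.8 over all. The count of AG-free domains largely followed that of wide GG domains (Spearman rho = 0.849 over 20 chromosomes, a description).

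The share of wide domains without AG bases also varied. It was 22 of 42 on chromosome 7 (52.4%), 10 of 21 on chromosome 2 (47.6%) and 28 of 73 on chromosome 9 (38.4%), and it was 5 of 39 on chromosome 4 (12.8%) and 1 of 10 on chromosome 18 (10.0%). Whether these shares go with the AG coverage of the whole chromosome was not tested. Chromosome 2 had the lowest AG coverage of all 20 in AG replicate 1 (0.269%). Chromosome 7 (0.473% and 0.659% in AG replicates 1 and 2) lay near the autosomal level and chromosome 4 (0.347% and 0.501%) below it. Without chromosomes 7 and 9 the share was 106 of 440 (24.1%).

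**Figure D5:**
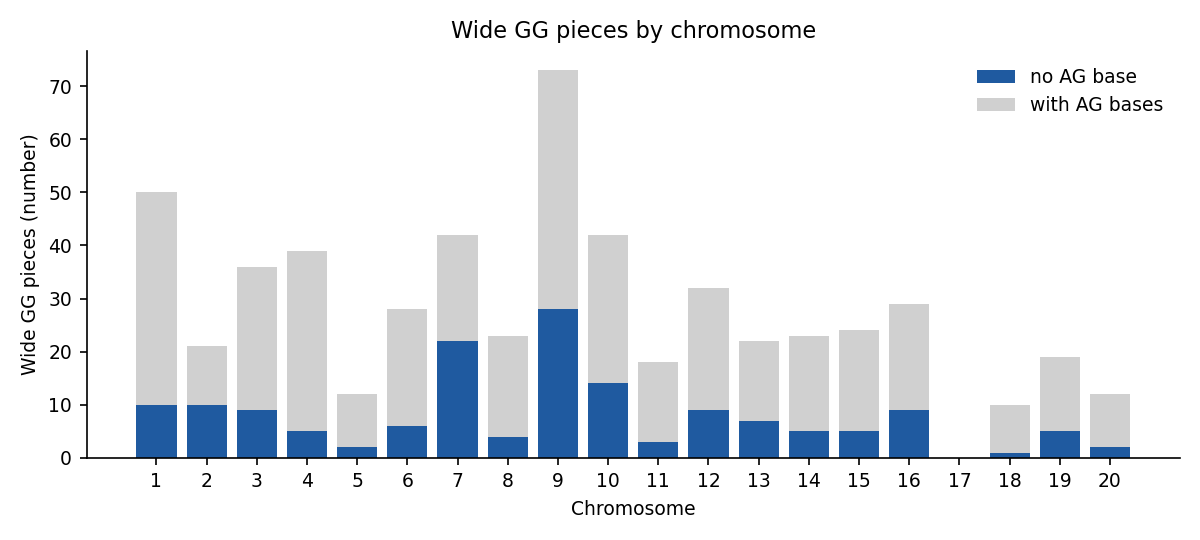
Number of wide GG domains on each chromosome, split into those with no AG base (blue) and those with AG bases (grey). Chromosomes 9, 7 and 10 have the most AG-free domains, with 28, 22 and 14, and chromosome 17 has no wide domain.

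Many AG-free domains lay close to each other or to wide domains with AG bases. Another AG-free domain lay within 100 kb of 39, a wide domain with AG bases within 100 kb of 51, and neither within 100 kb of 78. Wide domains with AG bases had such neighbours about as often. Another wide domain of either kind lay within 100 kb of 78 of the 156 AG-free domains and of 197 of the 399 with AG bases. Within 1 Mb the counts were 115 and 300. Closeness was therefore shared by both kinds of wide GG domain and was not particular to the AG-free ones. Grouped at distances of at most 1 Mb, 79 of the 156 fell into 30 groups. Domains of a group are neighbours, so the count of 156 is not one of independent events.

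The largest group lay near the start of chromosome 9 (1602660 to 4136825, 2.53 Mb), where 9 of 15 wide domains were AG-free. GG replicates 1 and 2 covered 68.1% and 81.9% of the whole span and AG replicates 1 and 2 covered 0.933% and 1.35% of it, above their autosomal level. The 9 domains measured 51.2 to 81.0 kb and were covered to 81.0% to 92.8% in GG replicate 1 and 92.0% to 96.5% in GG replicate 2. The 6 wide domains with AG bases among them held 0 to 2173 bases in AG replicate 1 and 833 to 1980 in AG replicate 2, so this group mixed bare and lightly marked domains.

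The second group lay on chromosome 7 (45222654 to 47269406, 2.05 Mb) with 6 of 8 wide domains AG-free, and another near the end of chromosome 6 (171904168 to 172649703) with 4 of 4. On chromosome 7 the AG libraries covered 0.442% and 0.606% of the span, and on chromosome 6 0.469% and 0.281%. All 4 values lie below the level of the same library over chromosomes 1 to 20, but the rule fixes part of this. The AG-free domains, with 0 AG bases by the rule, made up 21.4% of the span on chromosome 7 and 29.9% on chromosome 6. AG coverage of the rest of each span was not compared with that level. GG coverage was 52.6% and 58.8% on chromosome 7 and 47.0% and 50.3% on chromosome 6.

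Another group on chromosome 7 (160436666 to 161146505, 709.8 kb), singled out after its values were seen, held 3 AG-free domains and no AG base at all in between. They measured 56.7 to 90.0 kb and were covered to 88.7% to 90.5% in GG replicate 1 and 92.7% to 94.2% in GG replicate 2. The AG-free stretch around them ran from 160073388 to 161242310 (1169 kb), and GG replicates 1 and 2 covered 59.6% and 69.9% of it. Stretches of over 1 Mb held 27 of the 156 domains, and this one had more than 2 times the GG coverage of the 4171-kb stretch on chromosome 3.

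AG-free domains were found near chromosome ends, at a smaller share than wide domains with AG bases, a difference that was not tested. Of the 156, 35 lay within 5 Mb of an end (22.4%, 95% Wilson interval 16.6% to 29.6%), where 7.48% of the span lies, against 141 of 399 domains with AG bases (35.3%, 30.8% to 40.1%). Within 2 Mb of an end there were 5 (3.21%) against 63 (15.8%), with 2.99% of the span, and within 10 Mb 58 (37.2%) against 195 (48.9%), with 15.0% of the span. The outermost 2 Mb thus held AG-free domains at about their share of the span. Intervals cover counting error alone and treat neighbouring domains as separate. The ends were taken as the highest interval end on each chromosome.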

How the data were processed

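H3K27me3 CUT&RUN intervals of 4 libraries (AG and GG, 2 each, grouped by sample titles) were used. The submitters' processing notes list SICER 1.1 and deepTools 3.3.1, next to SAMtools, Bowtie2 and Trim Galore without versions, and the build rheMac8. The names of the deposited files give SICER's window, gap and E value (0.001) and a filter to islands. The authors' deposited lines give chromosome, start and end, without count or score; how tags were joined is not stated.

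Positions are printed 1-based. Covered bases were summed per region, library and flank, cut at chromosome ends. The selection was tested on simulated data, where 297 of 297 planted domains were recovered. Any pair of libraries shared 66 or fewer identical intervals on chromosomes 1 to 20. The members and the comparisons were chosen with earlier results of these data known. Regions named are the 10 widest, the 5 with the largest GG difference, the 5 nearest to and farthest from AG, and those at the thresholds. Alternatives changed the joining distance, the width, the AG bases allowed, the flank, the end distance and the libraries. Planned gene and sequence content was not analysed here. Scripts ran under Python 3.11.15 with scipy 1.17.1, numpy 2.4.6, matplotlib 3.10.9 and pandas 2.3.3.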

Additional observations from a re-analysis of the deposited data

How the results depend on the processing

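The number of AG-free domains (156) depended on the settings: it was 70 with a joining distance of 500 bp, 246 with 3000 bp, 604 with a minimum width of 30 kb and 38 with 75 kb, and 198 to 281 with 1 library left out. Allowing up to 150 AG bases per library left 156, and asking for no AG base within 10 kb left 149. GG coverage of the members was 93.8% at 500 bp, 86.9% at 3000 bp and 87.6% to 91.8% with 1 library left out. AG coverage of the flanks was 0.838% to 1.26% with 1 library left out and 0.673% without the bases of other wide domains (chosen after seeing the data). It was 1.08% and 0.765% with joining distances of 500 and 3000 bp, and 0.893% and 0.980% for flanks of 50 and 200 kb. The median distance to AG, 48.7 kb as reported, was 130.2 kb for AG replicate 1 alone and 60.6 kb for AG replicate 2 alone, and 59.6 and 89.7 kb with joining distances of 500 and 3000 bp. The share near chromosome ends was 3.21% at 2 Mb and 37.2% at 10 Mb. No paired analysis was possible because the labels do not tie a replicate of AG to one of GG. Depth is unknown, so absence of AG coverage is absence from called islands.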

Other observations

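Chromosome X was outside the rule. By the same joining and width it held 35 wide GG pieces, of which 34 lacked AG coverage altogether. These spanned 2.78 Mb, with a median width of 67.0 kb and a maximum of 199.9 kb, and were covered to 90.5% and 93.2% in GG replicates 1 and 2. The median distance to the nearest AG interval was 4813 kb. The exception (146937208 to 147053300) held 2849 and 998 bases in AG replicates 1 and 2. AG intervals were few outside the autosomes. AG replicates 1 and 2 held 42512 and 44337 intervals in all, of which 42157 and 44129 were autosomal. The share of all X sequence without AG coverage was not measured. Whether 34 of 35 differs from that share was therefore not tested, and it cannot be read as a trait of wide pieces. The number of X copies in the AG material was not measured.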
